A study of Danio rerio with 9 samples.

Results

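The 42 genes described here follow a zebrafish somite from its first segmentation signals to contracting muscle, and were chosen by name: 5 genes of the segmentation clock and of Notch signalling, 3 of the presomitic mesoderm, 6 of the segment boundary, 4 of somite patterning, 5 myogenic transcription factors and 19 muscle protein genes. A probe belonged to a gene when its RefSeq accession led to that symbol. Of 12858 symbols with a probe, 39 were members, through 92 probes. The genes mespab, mespbb and tcap had no probe here. The probes of tnnt3a and ryr1b were too dim to be kept, so 37 members were tested: 12 early genes (clock and Notch, presomitic mesoderm and segment boundary), 4 somite patterning genes, 5 myogenic factors and 16 muscle protein genes.

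RNA came from whole Tuebingen embryos at 12 h after fertilization, with 1 pool of 60 embryos per array. There were 3 injected groups of 3 arrays each: a control group that received GFP mRNA, for a fluorescent protein, a group that received Hif-1α mRNA and a group that received Hif-3α mRNA. Hif-1α and Hif-3α are oxygen-regulated subunits of the hypoxia-inducible transcription factors. All embryos were therefore injected with an mRNA, and the amount of mRNA and the oxygen level are not given in the sources used here. The replicates of each group, numbered 1 to 3, came from 3 independent microinjection experiments.

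Somites form in the zebrafish by rhythmic segmentation of the presomitic mesoderm. Hairy-related repressors and Delta-Notch signals cycle there, T-box factors act in this unsegmented tissue, and Mesp and Ripply proteins place the next boundary. Myogenic basic helix-loop-helix factors then commit cells to muscle, with slow fibres from cells beside the notochord maturing first, and the genes of the contractile apparatus follow. In an embryo that is still adding somites, early and late genes are expressed side by side, in younger and older segments.

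A level is a probe's log2 signal, less the 75th percentile over the whole array. Between 67.6% and 75.3% of 43603 probes lay well above background on an array, any 2 arrays correlated at 0.964 to 0.988 across probes, and Hif-3α replicate 1 carried 437 outlier spots against 3 to 24 on the others. Of 4 probes of hif1al, the RefSeq symbol of the zebrafish gene long called hif3a, 3 had a mean level more than 5 log2 units above control in the group that received Hif-3α mRNA. No probe here carried the symbol hif1aa or hif1ab, so the injected Hif-1α mRNA was not checked. Whole embryos hold many tissues, and 12 of 14 notochord markers, 14 of 15 neural, 12 of 14 epidermal, 11 of 14 blood and vessel, 12 of 13 yolk and endoderm and 8 of 9 hatching gland markers passed the filter on dim probes. Equal replicate numbers went together: the deviations of same-numbered arrays from their group means correlated at 0.109 to 0.583 over genes, and those of differently numbered arrays in other groups at -0.494 to 0.072. Differences between groups are therefore given with and without the replicate number as a block. Differences between numbers are given with the groups as a term. "Higher" and "lower" are used of tested differences that passed, with limma's Benjamini-Hochberg adjusted p under 0.05 over 19549 genes and transcripts. Errors are standard errors (SE) with n = 3 arrays on each side. The p-values measure the spread between pools.

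The members differed between replicate numbers: muscle genes were higher under replicate 3 than under replicate 1, and a few segmentation genes were lower. If equal numbers share an injection experiment, this sets 1 experiment against 1 other. The 3 arrays of a number are then pools of that experiment, and the SE and p-values do not measure the spread between experiments. Of the 37 members 15 were higher and 3 were lower, against 6.71% of all genes higher and 3.95% lower. In level, replicate 3 stood above replicate 1 in all 3 groups for 18 of the 37 members and below it for 9, against 25.0% and 27.5% of all genes. All 15 that were higher were myogenic factors (4 of 5) or muscle protein genes (11 of 16), and all 3 that were lower were early genes (3 of 12). The median log2 difference was 1.34 for the muscle protein genes, 0.92 for the myogenic factors, 0.04 for the somite patterning genes and -0.25 for the early genes, against -0.02 for all genes.

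**Figure D1:**
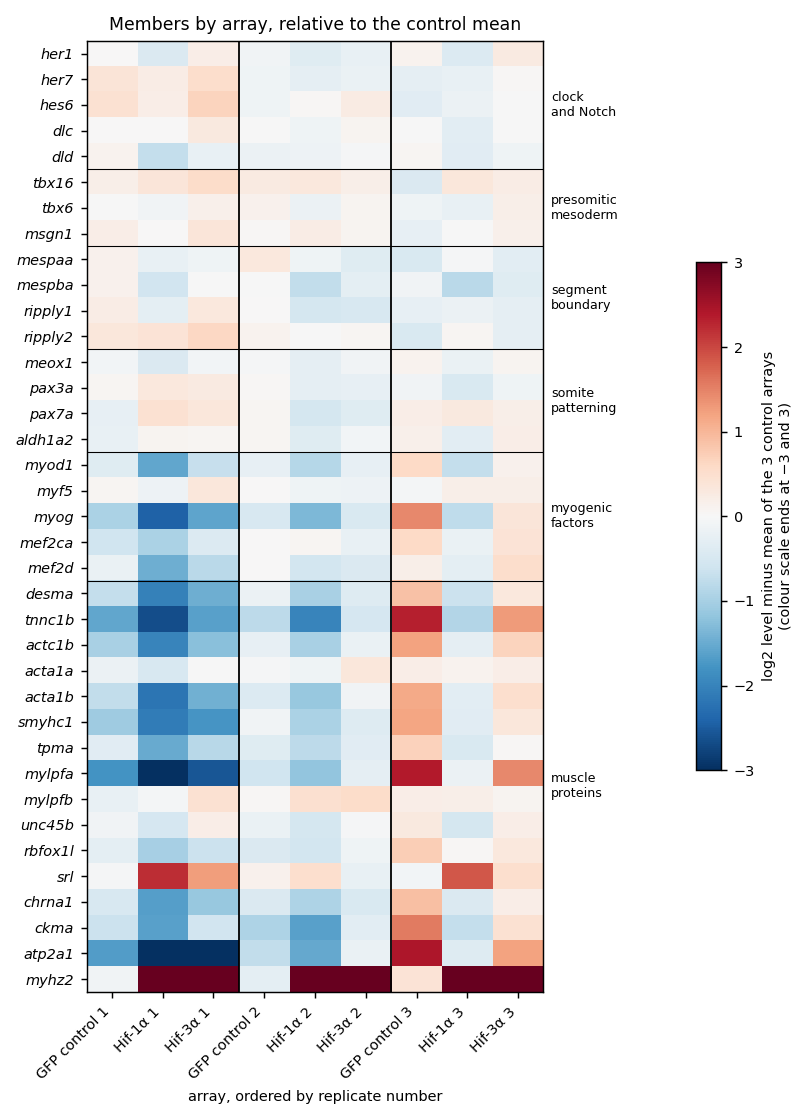
Log2 level of each of the 37 tested members (rows, grouped by role) on each of the 9 arrays (columns, ordered by replicate number and then by group), minus the mean of the 3 control arrays. Most myogenic and muscle rows are blue under replicate 1 and red on the control and Hif-3α arrays of replicate 3, while myhz2 is beyond the end of the colour scale at 3 on every Hif-1α and Hif-3α array, against control signals that were not well above background.

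Among the clock genes, her7, a cycling transcriptional repressor, had levels of 0.99, 0.49 and 0.35 on control arrays 1 to 3. Its levels were 0.83, 0.35 and 0.39 with Hif-1α and 1.13, 0.42 and 0.64 with Hif-3α. The 3 replicate 1 arrays lay above the other 6, and replicates 2 and 3 overlapped. Replicate 3 was lower than replicate 1, with a log2 difference of -0.52 ± 0.11 (limma adjusted p = 0.0321). The gene hes6, whose product pairs with Her proteins, stood at 3.55, 2.96 and 2.75 on the control arrays, at 3.29, 3.12 and 2.92 with Hif-1α and at 3.76, 3.34 and 3.07 with Hif-3α. Within each group replicate 1 was the highest array and replicate 3 the lowest, and the difference between them was -0.62 ± 0.12 (adjusted p = 0.0258). A second, dimmer hes6 probe had -0.67 ± 0.24 and did not pass (adjusted p over all probes 0.122). The other repressor, her1, had a difference of 0.05 ± 0.13, and did not pass.

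The Delta ligands dlc and dld, which signal to Notch on neighbouring cells, did not pass between replicates 3 and 1 (-0.22 ± 0.10 and 0.15 ± 0.16). Neither did the 3 presomitic mesoderm genes. These are the T-box genes tbx16 and tbx6 and the basic helix-loop-helix gene msgn1, with differences of -0.32 ± 0.17, -0.08 ± 0.11 and -0.22 ± 0.13. All 3 had negative differences, as did all 4 tested segment boundary genes.

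Of the boundary genes, ripply2, which encodes a corepressor that ends T-box activity at the forming boundary, was lower under replicate 3. Its levels were 1.75, 1.52 and 0.96 in the control group, 1.83, 1.40 and 1.46 with Hif-1α and 2.03, 1.46 and 1.13 with Hif-3α. Replicate 1 was the highest array of each group, and the 3 replicate 1 arrays did not overlap the others. The difference of replicate 3 from replicate 1 was -0.69 ± 0.15 (adjusted p = 0.0345). Of 3 ripply2 probes 2 passed, and the other had -0.57 ± 0.15 (limma adjusted p over all probes 0.0573). The relative of ripply2, ripply1, had -0.32 ± 0.18, and the Mesp genes mespaa and mespba had -0.18 ± 0.19 and -0.28 ± 0.09, none of which passed.

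The 4 somite patterning genes gave no call between numbers. They are meox1, a homeobox gene of the young somite, pax3a and pax7a, paired-box genes of muscle precursors, and aldh1a2, which makes retinoic acid. Their differences of replicate 3 from replicate 1 ran from -0.45 to 0.19.

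Of the myogenic factors, myf5 alone did not pass between replicates 3 and 1. The determination gene myf5 had a difference of 0.02 ± 0.15 and levels between 3.43 and 3.92 on all 9 arrays. By contrast myod1, the other determination gene, had levels of 2.43, 2.55 and 3.39 in the control group, 1.23, 1.94 and 2.08 with Hif-1α and 2.1, 2.55 and 2.91 with Hif-3α. Replicate 3 was the highest array in each group, and it was 1.83-fold higher than replicate 1 (log2 difference 0.87 ± 0.15, adjusted p = 0.0196).

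Myogenin, myog, drives differentiation. Its levels were -0.15, 0.30 and 2.22 in the control group, -1.64, -0.55 and 0.03 with Hif-1α and -0.79, 0.34 and 1.16 with Hif-3α. The numbers stood in the same order in all 3 groups, with replicate 1 lowest, and replicate 3 was 3.98-fold higher than replicate 1 (1.99 ± 0.24, adjusted p = 0.00908). The MADS-box cofactor genes mef2ca and mef2d were higher by 0.92 ± 0.20 and 0.97 ± 0.22 on the log2 scale (adjusted p = 0.0355 and 0.0382). A second, dimmer mef2d probe had 0.42 ± 0.15 and did not pass (adjusted p over all probes 0.114). Of 4 mef2ca probes 3 passed, and the dimmest had 0.59 ± 0.20 (adjusted p over all probes 0.107).

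**Figure D2:**
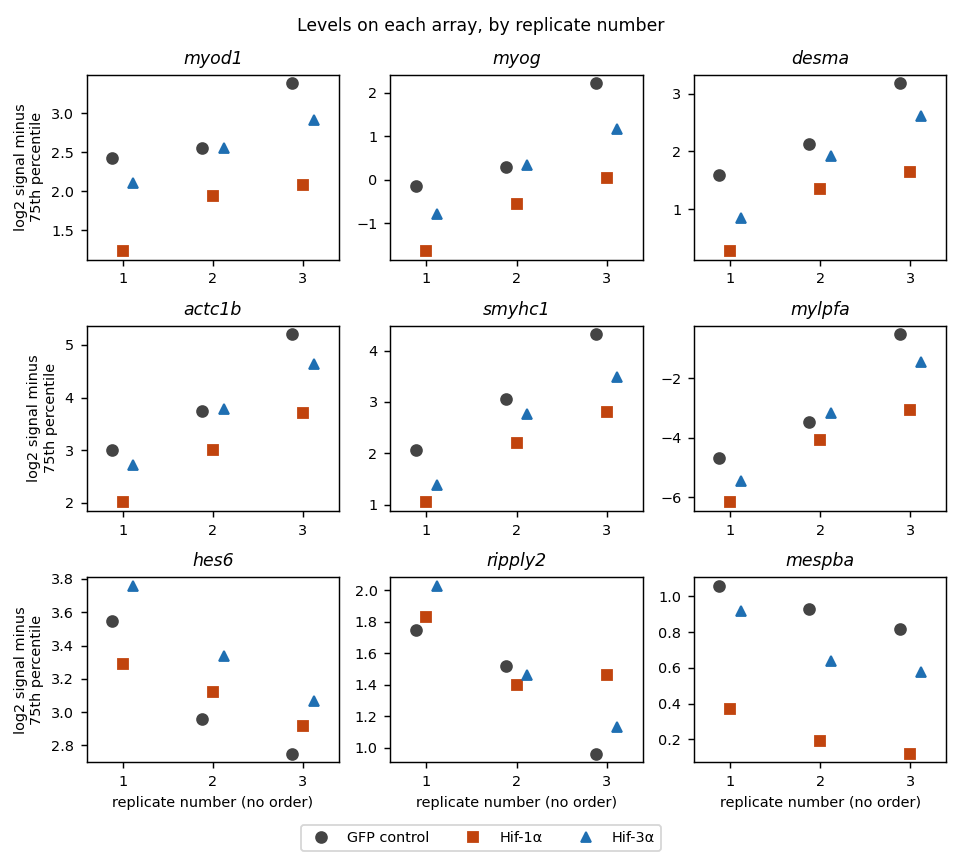
Levels (log2 signal minus the 75th percentile of the array) of 9 members on each array against replicate number, with 1 marker per array and 1 shape and colour per injected group. The upper 6 genes, myogenic and muscle, stand highest under replicate 3 in each group; hes6 and ripply2 stand highest under replicate 1; the 3 Hif-1α arrays of mespba, from 0.12 to 0.37, lie below the other 6.

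Muscle protein genes gave the largest differences between numbers. The fast myosin light chain gene mylpfa had levels of -4.68, -3.48 and -0.52 in the control group, -6.17, -4.08 and -3.08 with Hif-1α and -5.45, -3.16 and -1.46 with Hif-3α. On Hif-1α replicate 1 and Hif-3α replicate 1 it was not well above background, so 7 of 9 arrays measured it. It passed the filter on dim probes through the control group alone. Replicate 3 was the highest array in each group, and the fitted log2 difference from replicate 1 was 3.75 ± 0.35 (adjusted p = 0.00621).

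The calcium pump gene atp2a1 had levels of -3.38, -2.46 and 0.71 in the control group, -4.79, -3.24 and -2.09 with Hif-1α and -4.74, -1.92 and -0.50 with Hif-3α. Replicate 1 was again the lowest array of each group, and replicate 3 was 12.8-fold higher than replicate 1 (3.68 ± 0.45, adjusted p = 0.00893). The troponin C gene tnnc1b, whose product binds calcium on the thin filament, stood at -3.95, -3.17 and -0.06 in the control group, at -5.06, -4.37 and -3.27 with Hif-1α and at -4.02, -2.90 and -1.11 with Hif-3α. Control replicate 3 stood apart as the highest array, and the difference between replicates 3 and 1 was 2.87 ± 0.40 (adjusted p = 0.0115).

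Slow muscle myosin, smyhc1, is among the contractile genes that start early in the cells next to the notochord. Its levels were 2.07, 3.05 and 4.32 in the control group, 1.04, 2.2 and 2.81 with Hif-1α and 1.38, 2.77 and 3.49 with Hif-3α. It was 4.13-fold higher under replicate 3 than under replicate 1 (2.05 ± 0.15, adjusted p = 0.00527). It was also the only member that was higher under replicate 2 than under replicate 1, by 1.18 ± 0.15 (adjusted p = 0.039), a comparison in which 0.798% of all genes were higher and 0.450% lower.

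The actin gene actc1b had levels of 3.01, 3.74 and 5.20 in the control group, 2.01, 3.01 and 3.71 with Hif-1α and 2.73, 3.78 and 4.64 with Hif-3α. Replicate 3 was 3.82-fold higher than replicate 1 (1.93 ± 0.16, adjusted p = 0.00574). It was the only member that passed between replicates 3 and 2 (1.01 ± 0.16, adjusted p = 0.0416, with 0.731% of all genes higher and 0.864% lower). A second, dimmer actc1b probe passed between replicates 3 and 1 (1.84 ± 0.19, adjusted p over all probes 0.00703). The dimmest had 0.51 ± 0.16 there and did not pass (0.0857). Between replicates 3 and 2 these dimmer probes had 1.00 ± 0.19 and 0.01 ± 0.16, and neither passed. The call between replicates 3 and 2 therefore rests on the brightest probe. The related gene acta1b had levels of 1.65, 1.98 and 3.53 in the control group, 0.19, 1.25 and 2.07 with Hif-1α and 0.95, 2.29 and 2.90 with Hif-3α. It was higher under replicate 3 by 1.90 ± 0.21 (adjusted p = 0.00747). Its 6 kept probes ran from 0.24 to 1.94, and 5 of them passed. The probe at 0.24 ± 0.21 did not (adjusted p over all probes 0.48).

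Desmin, desma, forms the intermediate filaments of muscle cells. It had levels of 1.59, 2.13 and 3.19 in the control group, 0.27, 1.34 and 1.65 with Hif-1α and 0.84, 1.92 and 2.62 with Hif-3α, so that replicate 3 was the highest array of each group. The difference between replicates 3 and 1 was 1.58 ± 0.16 (adjusted p = 0.00708). The others that were higher were tropomyosin tpma (0.98 ± 0.17), the splicing regulator rbfox1l (1.02 ± 0.16), the acetylcholine receptor subunit chrna1 (1.31 ± 0.18) and the muscle creatine kinase ckma (1.37 ± 0.33), with adjusted p from 0.0115 to 0.0472. Another tpma probe passed (1.09 ± 0.20), while the dimmest had 0.65 ± 0.30 and did not (adjusted p over all probes 0.2). For chrna1 the levels were -0.86, -0.82 and 0.53 in the control group, -2.03, -1.30 and -0.82 with Hif-1α and -1.53, -0.85 and -0.19 with Hif-3α. For ckma they were -3.34, -3.64 and -1.14, then -4.34, -4.34 and -3.42, then -3.27, -3.03 and -2.26. In both genes replicates 1 and 2 of the control group lay close together and replicate 3 stood above them.

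Of the 16 muscle protein genes, 5 did not pass between replicates 3 and 1. They were acta1a (0.39 ± 0.12), the fast light chain mylpfb (0.09 ± 0.18), the myosin chaperone unc45b (0.12 ± 0.13), sarcalumenin srl (-0.38 ± 0.36) and the fast myosin heavy chain myhz2 (-0.50 ± 0.45). For acta1a the brightest probe stood for the gene, and its other 2 probes passed, with 1.07 ± 0.16 and 1.00 ± 0.17 (adjusted p over all probes 0.0138 and 0.0195). The actin genes acta1a, acta1b and actc1b, the slow myosins and the paired light chains have similar sequences, so that a probe can take up signal from a close relative.

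Averaged over each set of genes, the deviation of an array from the control mean showed early and muscle genes going opposite ways between replicate numbers. The 16 muscle protein genes averaged -0.68, -0.35 and 1.03 on control arrays 1 to 3, -1.09, -0.45 and 0.06 with Hif-1α and -0.59, 0.04 and 0.71 with Hif-3α. These averages include myhz2, whose control signals were not well above background, and srl, whose probes disagree. The 12 early genes averaged 0.18, 0.03 and -0.21, then -0.09, -0.16 and -0.19, then 0.28, -0.07 and -0.04. Within each group the muscle average was highest and the early average was at or near its lowest under replicate 3, and the range of the muscle average was several times that of the early average. Muscle minus early differed between replicates 3 and 1 by 1.66 on average over the 3 groups (1.08 after normexp background correction and 75th percentile scaling, and 1.92 without myhz2 and srl). This score over chosen members carries no test.

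**Figure D3:**
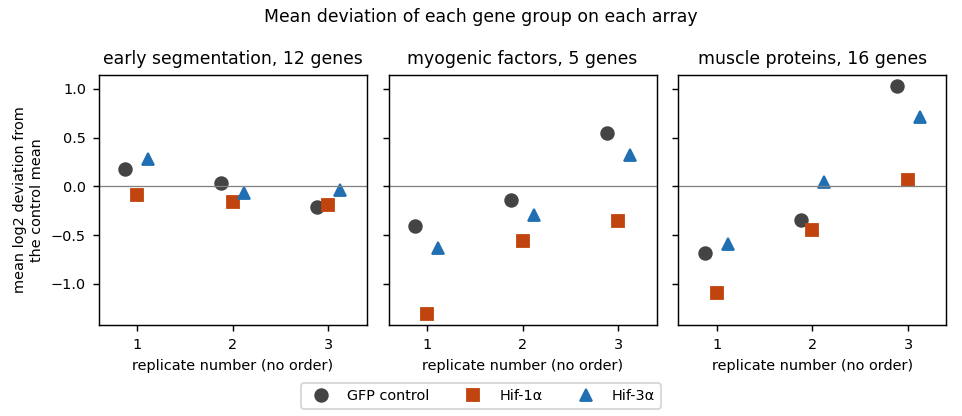
Mean log2 deviation from the mean of the control arrays, on each array, for the 12 early genes, the 5 myogenic factors and the 16 muscle protein genes, plotted against replicate number. The early averages stay between -0.21 and 0.28, while the muscle averages run from -1.09 on Hif-1α replicate 1 to 1.03 on control replicate 3.

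Single arrays carried part of the count between replicates 3 and 1, of members and of all genes. Without control replicate 3 it was 6 members, without Hif-3α replicate 1 it was 7, and without Hif-3α replicate 3 it was 5. Over all genes 148 were then higher and 42 lower, 310 and 55, and 178 and 47, against 1311 and 772 on all arrays. Without Hif-1α replicate 1 or replicate 3 the count of members was 10 or 11. Over all genes 539 were then higher and 204 lower, or 616 and 273. The genes actc1b, desma, mylpfa and smyhc1 passed whichever array was left out, and all 18 kept their sign. The replicate 1 arrays were scanned on 3 days, and replicates 2 and 3 together on another day, except Hif-1α replicate 3, which was scanned with Hif-1α replicate 1. With scan day as a block 0 members and 0.107% of all genes passed, with 1 residual degree of freedom. In that fit the difference rests on Hif-1α replicates 1 and 3 alone, since no other arrays of these numbers shared a scan day. The median difference of the muscle protein genes was then 1.13. The same 2 arrays shared a slide, so counts on that slide describe this pair again and are not a further check. There 13 of 16 muscle protein genes and 5 of 5 myogenic factors were higher in level in replicate 3, against 47.2% of all genes. Of the muscle protein genes 10 differed there at least 2-fold, against 4.40% of all genes.

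Markers of other tissues also differed between replicate numbers. Of 12 tested notochord markers, 7 were higher and 1 was lower under replicate 3 than under replicate 1, and of 11 blood and vessel markers 5 were higher. The summed notochord signal, relative to the 75th percentile, was 55.58 to 62.6 on the replicate 1 arrays and 81.99 to 104.2 on the replicate 3 arrays, and col9a1a was too dim to be kept. The summed blood and vessel signal was 11.12 to 20.63 and 22.12 to 34.42, and kdrl was too dim. Of 14 neural markers and of 12 epidermal markers 1 each was higher and none was lower, and no yolk and endoderm or hatching gland marker passed (limma, 4 of each list at an unadjusted p under 0.05). The part of these tissues in the muscle result was not tested. In RNA from whole embryos, fewer muscle cells and less muscle RNA per cell cannot be told apart.

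The comparison of Hif-1α with GFP asks which genes respond to added Hif-1α mRNA. Without the replicate number as a block, 2 members passed: the segment boundary gene mespba was lower and the myosin gene myhz2 was higher, against 3.61% of all genes lower and 5.37% higher. Since myhz2 was well above background on no control array, it had passed the filter through the Hif-1α and Hif-3α groups alone. Its call is therefore not read as support. With the number as a block 17 passed, 15 lower and 2 higher, against 10.7% of all genes lower and 11.3% higher. The 15 were mespba, 3 of 5 myogenic factors and 11 of 16 muscle protein genes, and the 2 were myhz2 and srl. Among the 11 is mylpfa, which had passed the filter through the control group alone. The log2 differences themselves are the same in both fits. Their median was -1.04 for muscle protein genes, -0.76 for myogenic factors, -0.17 for somite patterning genes and -0.14 for early genes, against -0.01 for all genes.

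**Figure D4:**
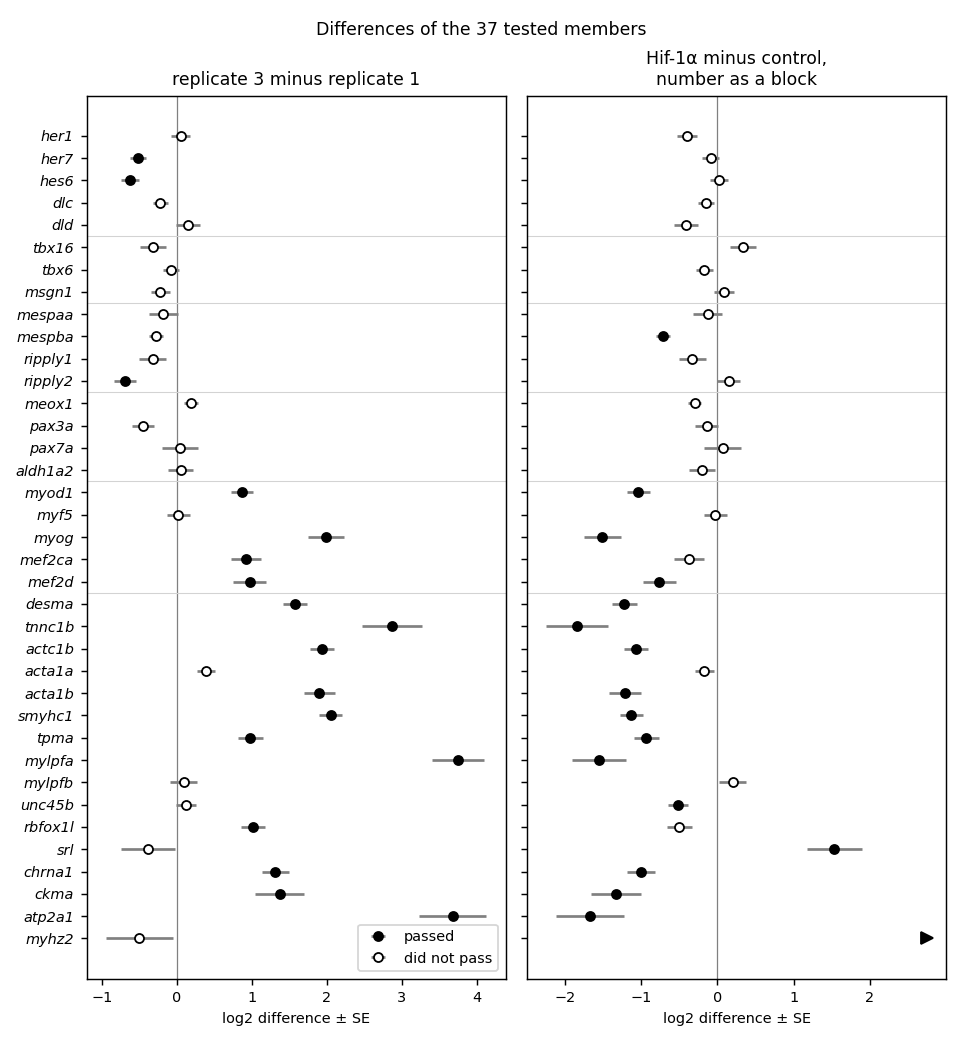
Log2 difference with its standard error for each of the 37 tested members, for replicate 3 minus replicate 1 (left, groups as a term) and for Hif-1α minus control (right, replicate number as a block); filled points passed at an adjusted p under 0.05. The 15 members that were higher on the left are muscle and myogenic genes; the 15 that were lower on the right hold 14 muscle and myogenic genes and mespba; srl lies at 1.53 on the right, and the triangle marks the lower bound of myhz2, 2.75, without an error bar.

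The gene mespba encodes a Mesp factor of the next segment boundary. Its levels were 1.06, 0.93 and 0.82 in the control group, 0.37, 0.19 and 0.12 with Hif-1α and 0.92, 0.64 and 0.58 with Hif-3α. Every Hif-1α array lay below every control and every Hif-3α array. The difference between Hif-1α and control was -0.71 ± 0.14 (1.63-fold lower, limma adjusted p = 0.0238), and with the number as a block -0.71 ± 0.09 (adjusted p = 0.00684). Its second probe gave -0.73, and passed in both fits.

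No other early gene passed with Hif-1α. The nearest to mespba in size were her1, with -0.40 ± 0.13 and an adjusted p of 0.0692 with the block, and dld, with -0.41 ± 0.16 and 0.116. The levels of her1 were 1.40, 1.27 and 1.49 in the control group, 0.96, 1.02 and 0.97 with Hif-1α and 1.59, 1.17 and 1.65 with Hif-3α. The Hif-1α arrays did not overlap the others. For her7 and hes6, which were lower under replicate 3, the Hif-1α differences were -0.09 ± 0.11 and 0.02 ± 0.12. The somite patterning gene meox1 had -0.30 ± 0.09 (adjusted p = 0.0644), and 1 of its other 2 probes passed with the block (-0.46 ± 0.11, adjusted p over all probes 0.0287).

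Of the myogenic factors myod1, myog and mef2d were lower with Hif-1α once the number was a block. For myod1 the difference was -1.04 ± 0.15 (2.06-fold lower, adjusted p = 0.00905), and -1.04 ± 0.33 without the block (adjusted p = 0.0881). The 3 Hif-1α arrays lay below all other arrays, Hif-1α replicate 3 by little. For myog it was -1.51 ± 0.24 (2.86-fold lower, adjusted p = 0.012), and 0.212 was the adjusted p without the block. For mef2d it was -0.76 ± 0.22 (adjusted p = 0.0484, and 0.236 without). The second mef2d probe had -0.37 ± 0.15 with the block and did not pass (adjusted p over all probes 0.11). The differences of mef2ca (-0.37 ± 0.20) and myf5 (-0.03 ± 0.15) did not pass in either fit.

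The muscle protein genes that were lower with the block fell by 0.52 to 1.84 on the log2 scale. Those with the smallest adjusted p were desma (-1.22 ± 0.16, adjusted p = 0.00727), smyhc1 (-1.13 ± 0.15, 0.00752) and actc1b (-1.07 ± 0.16, 0.00942). The largest differences were those of tnnc1b (-1.84 ± 0.40), atp2a1 (-1.67 ± 0.45) and mylpfa (-1.55 ± 0.35). The others were acta1b, tpma, unc45b, chrna1 and ckma. The second unc45b probe had -0.88 ± 0.28 and did not pass (adjusted p over all probes 0.065). Of 6 acta1b probes 5 passed, and the other had -0.64 ± 0.21 (0.0713). Of the 11 muscle protein genes, mylpfa had passed the filter on dim probes through the control group alone, where it is high. Its call is therefore not read as support. None of these 11 passed without the block, where their adjusted p ran from 0.0681 for unc45b to 0.476 for mylpfa.

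Same-numbered arrays show the pairing directly. The level was lower with Hif-1α than in the control under all 3 numbers for 21 of 37 members, against 29.4% of all genes, and for 13 of 16 muscle protein genes. For unc45b the Hif-1α arrays stood at 3.44, 3.43 and 3.41, below the control arrays at 3.85, 3.75 and 4.24 and the Hif-3α arrays at 4.14, 3.92 and 4.14. For actc1b the Hif-1α array differed from its control by -0.99, -0.73 and -1.49, while the spread of the control arrays over numbers was larger than each of these. The list of muscle protein genes had an average deviation with Hif-1α of -1.73, -0.91 and -0.35 when srl and myhz2 were left out, against -0.77, -0.39 and 1.15 in the control group.

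The calls with the block, of members and of all genes, depended on which array was left out. Between 6 and 18 members were then called: 7 without control replicate 1 or 3, 6 without Hif-1α replicate 1 or 3, and 11 without Hif-3α replicate 3. On all arrays 2214 genes were higher and 2086 lower. Without control replicate 1 or 3 these were 925 and 598, or 585 and 262. Without Hif-1α replicate 1 or 3 they were 759 and 358, or 665 and 280. They were 1352 and 1005 without Hif-3α replicate 3. The genes actc1b, desma, mespba, myhz2, myod1 and smyhc1 passed each time, and all 17 kept their sign. Among the 17, myhz2 had passed the filter on dim probes through the Hif-1α and Hif-3α groups alone and mylpfa through the control group alone. The calls of myhz2 and mylpfa are not read as support. With scan day as a block, and 3 residual degrees of freedom, 0 members and 0.0205% of all genes passed (limma). The only scan day with control and Hif-1α arrays held control replicates 2 and 3 and Hif-1α replicate 2. That fit, and a fit within this day with 2 residual degrees of freedom, therefore set 1 Hif-1α array against 2 control arrays. With scan day as a block the median was -1.24 for the muscle protein genes, 13 of 16 negative. The control side there includes replicate 3, under which muscle genes were higher, so the value is not a difference between equal numbers. Of the blood and vessel markers 4 of 11 were lower with the block, and their summed signal was 20.63 to 34.42 on the control arrays and 11.12 to 22.12 on the Hif-1α arrays. Of 12 yolk and endoderm markers, 5 were higher without the block and 6 with it, and their summed signal was 48.96 to 95.73 and 90.5 to 119.4. Of 12 epidermal markers, 1 was higher without the block and 4 with it, and their summed signal was 1159 to 1309 on the control arrays and 1488 to 1732 with Hif-1α, without overlap. Of 8 hatching gland markers 2 were higher with the block, and of 12 notochord markers 1 was higher and 1 lower, while no neural marker passed (limma, 1 of 14 at an unadjusted p under 0.05). Their part in the muscle result was not tested.

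The muscle genes myhz2 and srl had positive differences with Hif-1α. The gene myhz2 encodes a fast muscle myosin heavy chain and had a single probe. Its levels were -7.86, -8.04 and -7.35 on the control arrays, none of them well above background, -3.19, -2.75 and -3.81 with Hif-1α and -2.74, -4.42 and -4.11 with Hif-3α. The Hif-1α and Hif-3α groups both lay above all control arrays and overlapped each other. The gene was kept only through these 2 groups, where it is high, so its call after that filter is not read as support. With Hif-1α it was at least 6.72-fold higher than the dimmest signals that were well above background (measured means -3.25 and -7.75), and with no filter on dim probes its adjusted p was 0.00884 (limma). After normexp background correction and 75th percentile scaling its log2 difference was 0.49, with an adjusted p of 0.917 (limma). That correction added an offset of 50 to each signal, which shrinks the log2 differences of dim probes such as this one. With Hif-3α it was at least 4.73-fold above the dimmest signals, and did not pass over genes (limma adjusted p = 0.0539, and 0.0377 over all probes). These values come after the same filter and are not read as support either. The measured difference of Hif-3α from Hif-1α was -0.51 ± 0.45 and did not pass (limma adjusted p = 0.569).

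The gene srl, for sarcalumenin of the sarcoplasmic reticulum, had 2 probes that went opposite ways. The brighter probe had levels of 0.55, 0.71 and 0.50 in the control group, 2.81, 1.08 and 2.45 with Hif-1α and 1.84, 0.36 and 1.1 with Hif-3α. Every Hif-1α array lay above every control array, and the difference was 1.53 ± 0.36 with the block (adjusted p = 0.0308, and 0.083 without). The dimmer probe had levels of -4.00, -3.70 and -2.94, then -5.87, -4.53 and -4.38, then -4.25, -3.75 and -3.43. Every Hif-1α array lay below every control array, and 2 of the 3 Hif-1α arrays were well above background. The difference was -1.38 ± 0.21 with the block (adjusted p over all probes 0.00935). The dimmer probe was also higher under replicate 3 than under replicate 1 (1.13 ± 0.21, adjusted p over all probes 0.0234), whereas the brighter probe had -0.38 ± 0.36. The direction of srl with Hif-1α therefore depends on the probe.

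**Figure D5:**
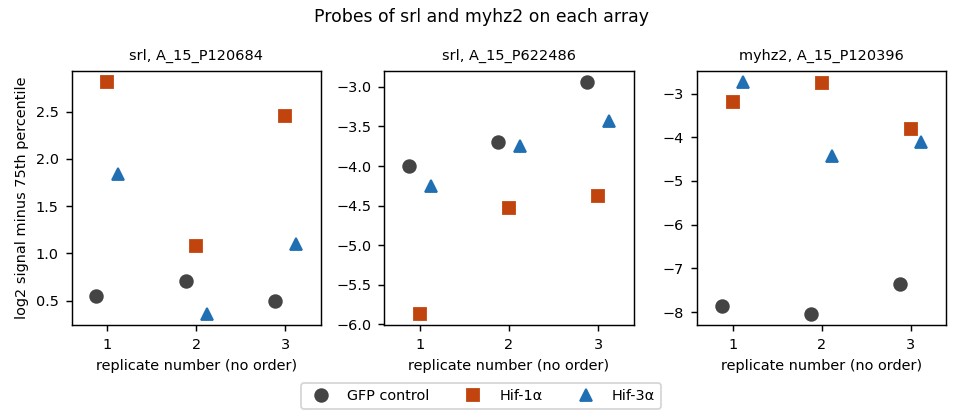
Levels (log2 signal minus the 75th percentile of the array) of both srl probes and of the myhz2 probe on each array, against replicate number. The Hif-1α arrays lie above the control arrays for the first srl probe and below them for the second; all 6 Hif-1α and Hif-3α arrays of myhz2, from -4.42 to -2.74, lie above the control arrays, which were not well above background.

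With Hif-3α the members were compared with the same 3 control arrays, so the 2 comparisons share them. No member passed, with or without the block (limma, 1 and 6 members at an unadjusted p under 0.05), against 0.00512% of all genes higher. The median difference was -0.28 for the muscle protein genes, -0.24 for the myogenic factors and 0.12 for the early genes, against 0.04 for all genes. For myod1 the difference with the block was -0.27, with a 95% interval of -0.64 to 0.09, and for actc1b it was -0.27 (-0.65 to 0.11). For desma and smyhc1 the intervals lay below 0, at -0.90 to -0.13 and -0.96 to -0.24, but their adjusted p, 0.301 and 0.23, did not pass. Other members went the other way: the interval of hes6 lay above 0, at 0.02 to 0.59 (adjusted p = 0.381), and myhz2 had a positive difference. The early gene mespba had -0.22 ± 0.09 (adjusted p = 0.401).

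The Hif-1α and Hif-3α groups were also set against each other directly. Without the block 0 members passed (limma, 5 at an unadjusted p under 0.05), against 0.210% of all genes higher and 0.685% lower with Hif-3α. With the block 4 members were higher with Hif-3α than with Hif-1α, against 1.97% of all genes higher and 2.35% lower. They were mespba (0.48 ± 0.09), unc45b (0.64 ± 0.13), myod1 (0.77 ± 0.15) and actc1b (0.80 ± 0.16), with adjusted p from 0.0443 to 0.0478. The other probes of mespba, unc45b and actc1b did not pass. The dimmer srl probe was higher with Hif-3α (1.12 ± 0.21, limma adjusted p over all probes 0.0422). The probe that stood for srl had -1.01 ± 0.36 and did not pass. Of the other members, myog (0.96 ± 0.24) had an adjusted p of 0.0711 and desma (0.71 ± 0.16) of 0.0599. The same-numbered Hif-3α array was the higher under all 3 numbers for 24 of 37 members, against 33.9% of all genes, and for all 5 clock and Notch genes. On the only slide that held both factors, 14 of 16 muscle protein genes were higher in level on the Hif-3α array, against 51.2% of all genes. None of these 4 passed under every array left out, and all 4 kept their sign. The count of members ran from 0 to 12. It was 0 for 7 of the 9 arrays, 1 when control replicate 3 was dropped and 12 when control replicate 2 was. Over all genes 386 were higher and 460 lower on all arrays. Dropping any Hif-1α or Hif-3α array left 1 to 8 higher and 39 to 68 lower. Those counts of 0 members therefore say nothing about these 4. Dropping control replicate 1, 2 or 3 gave 249 and 432, 1199 and 1031, or 37 and 139 over all genes.

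Other genes of muscle and of segmentation were counted from wider lists that leave out the members. Of 63 tested wider muscle genes, of 113 listed, 26 were higher and 2 lower under replicate 3 than under replicate 1. Of all genes 6.71% were higher and 3.95% lower. The median of the wider muscle genes was 0.59. Their smallest p-values included those of smtnl1, a smoothelin-like gene (3.24 ± 0.23), and the muscle caveolin cav3 (2.48 ± 0.21). The slow myosin smyhc3 (1.87 ± 0.16) and the alpha-actinin actn3b (1.31 ± 0.14) were also among them. For Hif-1α 0 passed without the block (limma, 11 at an unadjusted p under 0.05), against 3.61% of all genes lower and 5.37% higher. With the block 23 were lower and 2 higher, against 10.7% of all genes lower and 11.3% higher. The 2 are thus a smaller share than that of all genes. Among the wider muscle genes that passed were mef2aa, another MADS-box factor (-0.83 ± 0.10), and tnnc2.2, a troponin C (-1.06 ± 0.17). The muscle enolase of glycolysis, eno3, was higher (0.74 ± 0.12).

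Of 42 tested wider segmentation genes, of 50 listed, 1 was higher and 2 lower under replicate 3, a smaller share than the 6.71% of all genes higher and one near the 3.95% lower. These were thbs4b, a thrombospondin of tendon and boundary matrix (1.26 ± 0.19), dact1, a modulator of Wnt signalling (-0.79 ± 0.13), and the Notch target her4.1 (-0.44 ± 0.11). With Hif-1α and the block her4.1 (-0.58 ± 0.11) and her12 (-0.54 ± 0.15), a Hairy-related clock gene, were lower, and cyp26a1, which breaks down retinoic acid, was higher (0.92 ± 0.23), smaller shares than the 10.7% of all genes lower and 11.3% higher. The median of the wider segmentation genes was -0.02 with Hif-1α, and -0.04 between replicates 3 and 1.

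The 2 members that failed the filter had these values. The only probe of tnnt3a, fast troponin T, was well above background on control replicate 1 alone, at -3.37. For ryr1b, the calcium release channel, a probe was well above background on replicates 2 and 3 of all groups and on no replicate 1 array. Its levels were -6.16, -5.56 and -3.68 in the control group, -6.19, -5.06 and -4.08 with Hif-1α and -6.04, -4.84 and -3.91 with Hif-3α, so the lowest array of each group was replicate 1. Neither gene was tested.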

How the data were processed

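RNA of 9 pools of embryos was hybridised to 1-colour Agilent arrays, whose design per the file headers is a zebrafish grid (026437). The labelling text speaks of a mouse array instead. The authors' deposited spot files give intensity values, the processed signal among them, from Feature Extraction 10.7.3.1, background-subtracted and detrended but not normalized between arrays, per the file headers. The deposited flags per spot hold 0 or 1. The authors normalized with GeneSpring 11.0, per the series' design text. Their deposited matrix, used as an alternative, holds log2 values with a median of 6.085 in every column, each correlating at 0.9987 or more with the log2 processed signal.

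Spots of a probe were averaged, and 459 outlier values were dropped, none of them of a member. Levels are the log2 processed signal minus the 75th percentile of the array. A kept probe was well above background on every array of some group (31116 probes), and the brightest probe stood for its gene, 19549 genes and transcripts. Accessions were named through the RefSeq table of assembly GRCz12tu, used for names alone, with 25069 probes matched. No sequences or coordinates were used. Differences were fitted with limma 3.58.1 in R 4.3.3, on all 9 arrays, 1 mean per group, or groups and numbers as terms, tested two-sided with Benjamini-Hochberg adjustment, and the fit was tested on simulated data. The median SE was 0.20 between groups and 0.14 with the block. The arrays' number limits the precision. A fold is written "at least" where no array of a group was well above background. Same-numbered arrays are taken as paired, since all 9 same-number pairs correlated above those of other numbers, and the titles number the replicates of 3 injection experiments.

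All members are accounted for. Of the wider lists up to 6 genes per comparison with the smallest p were eligible to be named. Members and lists were chosen with earlier results of these data known. Alternatives were other scalings, background corrections, filters, probe rules, blocks and arrays left out. The normexp correction used an offset of 50.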

Additional observations from a re-analysis of the deposited data

Results flagged for a closer look

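For 4 members the effect of Hif-3α minus that of Hif-1α, against the same controls and with the replicate number as a block, passed the test of the difference itself. It was 0.48 for mespba, 0.64 for unc45b, 0.77 for myod1 and 0.80 for actc1b on the log2 scale (limma adjusted p 0.0443 to 0.0478), and the level was higher with Hif-3α under 3 of 3 numbers for each of them. With the block 1.97% of all genes were higher and 2.35% lower. None of the 4 passed without the block, and none passed under every array left out. Over all genes only 1 to 8 were higher and 39 to 68 lower once a Hif-1α or Hif-3α array was dropped, against 386 and 460. The second probe of mespba had 0.53 ± 0.12 with the block and did not pass (adjusted p over all probes 0.0552). Neither did the other actc1b probes, with 0.87 ± 0.19 and 0.42 ± 0.16 (0.0548 and 0.147). The second probe of unc45b had 0.37 ± 0.28 with the block and did not pass (adjusted p over all probes 0.407). Under number 3 that probe was lower in level with Hif-3α (-5.35) than with Hif-1α (-4.98).

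For dlc, a Delta ligand, the same-numbered Hif-1α array differed from the control by -0.01, -0.11 and -0.31, and the Hif-3α array by 0.28, 0.09 and 0.01, so that every difference had the opposite sign in the 2 groups. The difference between the groups was 0.27, with an adjusted p of 0.306 without the block and 0.148 with it, and so did not pass. The second dlc probe had a Hif-1α difference of the opposite sign, 0.09.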

How the results depend on the processing

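Counts of members called by limma moved with the settings, and no called result reversed under these settings, although the dimmer srl probe passed in the direction opposite to the probe that stood for the gene (-1.38 against 1.53 for Hif-1α, with the block). Normexp background correction with 75th percentile scaling moved the median of all genes to -0.199 for Hif-1α against control. With it 0 members passed in that comparison and 0 in each comparison between numbers. At an unadjusted p under 0.05 there were 3, 11, 7 and 7. Of 19549 genes 6 were higher and 0 lower there for Hif-1α against control, and 0 passed in each comparison between numbers. These counts of 0 therefore say nothing about the members. The 2 calls for Hif-1α against control became 17 with the replicate number as a block, 0 with scan day as a block or within the shared scan day, and 1 without a filter on dim probes, with a filter on all 9 arrays, or with the 2 compared groups alone. They were 1 to 2 when an array was left out. For Hif-3α against control 1 member passed with the mean of all kept probes. For Hif-3α against Hif-1α 1 passed with normexp and quantile normalization, and 4 with the replicate block. The replicate block changed no call for Hif-3α against control. The 18 calls for replicate 3 against 1 became 0 with scan day as a block and 5 to 17 when an array was left out. The 1 call for replicate 2 against 1 became 2 with quantile normalization or the deposited matrix, 7 without the filter, 0 with scan day or slide as a block, and 0 to 9 with an array left out. The 1 call for replicate 3 against 2 became 2 with quantile normalization or the deposited matrix, 0 without the filter or with scan day or slide as a block, and 0 with any array left out. The blocked counts of 17 and 4 became 0 and 0 with normexp and 75th percentile scaling, where 0 of 19549 genes passed. They ran from 6 to 18 and from 0 to 12 with an array left out, and the counts over all genes moved as well. These blocked settings, and slide as a random block, were added after seeing the data. Muscle minus early differed between replicates 3 and 1 by 1.66, by 1.08 with normexp and the 75th percentile and by 1.19 with normexp and quantile normalization. Muscle minus early was -0.35 for Hif-1α against control and turned to 0.27 without control replicate 3. It was -0.85 without myhz2 and srl, a choice added after seeing the data. Centring each array on its median gave 843 genes higher and 1247 lower for Hif-1α against control, against 1050 and 706. Beside the counts of 0 from scan day, slide, the missing filter or an array left out, 1 to 21 members had an unadjusted p under 0.05. The fits with scan day had 3 residual degrees of freedom between groups, 2 within the shared day, which held 1 Hif-1α array, and 1 between numbers. They passed at most 0.107% of all genes in the comparisons with member calls of 2 and 18, so their counts of 0 members say nothing about stability. The cause of these changes was not tested.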
